A study of Caenorhabditis elegans with 12 samples.

Results

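The superoxide dismutase and catalase genes of *C. elegans* were followed in sorted cells of the proximal somatic gonad (PSG, the spermatheca and uterus region). The 8 genes were taken from the count table by name, *sod-1* to *sod-5* and *ctl-1* to *ctl-3*, of 46687 genes in all, and all 8 were found. The family was chosen by its names with earlier results of these data known, and the measured value that drew attention to it was the high level of *sod-5* in old *daf-2(rf)* cells, so differences that rest on it are given as a description without a test. The animals were hermaphrodites of 2 genotypes. One was *daf-2(rf)*, which carries the reduction-of-function allele *e1370* of the insulin/IGF-like receptor gene and has high DAF-16/FOXO activity. The other was *daf-16(0); daf-2(rf)*, called the double mutant here, which carries the same *daf-2* allele and the null allele *mu86* of *daf-16*. Both carried a single-copy transgene with GFP under the *fos-1a* promoter, and GFP+ cells of untreated adults were sorted at an age of 1 day (D1) or 7 days (D7) of adult life, with 3 libraries in each of the 4 groups. Each library came from the pooled cells of many animals, and no group had wild-type *daf-2*.

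Superoxide dismutases turn superoxide into hydrogen peroxide and oxygen, and catalases break hydrogen peroxide down to water and oxygen. *C. elegans* has the unusual arrangement of a main and a minor, inducible enzyme both in the cytosol (the copper/zinc enzymes SOD-1 and SOD-5) and in the mitochondrial matrix (the manganese enzymes SOD-2 and SOD-3), beside an extracellular or membrane-bound copper/zinc enzyme (SOD-4). CTL-2 is the peroxisomal catalase, CTL-1 a cytosolic one, and CTL-3 the remaining member of the family. *sod-3* is a classical target gene of DAF-16, widely used as a reporter of low insulin signaling.

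The reads assigned to genes numbered 6183054 in the shallowest library and 16407304 in the deepest. Levels are given as CPM, reads scaled to a common library size, after TMM scaling over the 12 libraries, where 1 read was worth 0.0251 to 0.373 CPM. The libraries were uneven: the TMM factors ran from 0.385 to 3.22, and the 10 most abundant genes took 27.3% to 73.5% of the reads. The deleted gene checked the labels, with *daf-16* at 13.3 to 43.5 CPM in the 6 *daf-2(rf)* libraries and at 4.95 to 18.6 CPM in the 6 double-mutant libraries. The ranges overlapped because *daf-2(rf)* D7 replicate 3, at 13.3 CPM, lay below double-mutant D1 replicate 3, at 18.6 CPM, while within each day the genotypes did not overlap. All 11 PSG marker genes in the table had reads in every group, with summed levels of 913 to 2716 CPM. Markers of other tissues were present too: the 8 body-wall muscle markers summed to 1531 to 19585 CPM. They include *unc-54*, whose untranslated tail the GFP transgene also carries, and how many of its reads came from the transgene was not tested. The paper also counts striated muscle contraction among the functions of the PSG. The sum is therefore not a measure of body-wall muscle cells alone. In bulk libraries, fewer cells of a type and less RNA per cell cannot be told apart.

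The cytosolic pair showed the widest range. *sod-5* (ZK430.3, WBcel235 chromosome II, 4417683 to 4419131, plus strand) had 315, 186 and 301 CPM in the 3 *daf-2(rf)* D7 libraries. It had 4.53, 1.36 and 0.0778 CPM in *daf-2(rf)* on D1. In the double mutant it had 1.12, 0.825 and 1.05 CPM on D1 and 0.259, 1.62 and 1.11 CPM on D7. Every D7 *daf-2(rf)* library thus stood far above all 9 others, which overlapped one another across groups. In reads, the D7 *daf-2(rf)* libraries held 3613, 7420 and 10646 for *sod-5*, whereas no other library held more than 38. On D7 the *daf-2(rf)* libraries averaged 268 ± 70.7 CPM (SD, n = 3) for *sod-5* and those of the double mutant 0.995 ± 0.686 CPM (SD, n = 3), a fitted log2 difference of 8.09 (SE 0.72).

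Between D1 and D7 in *daf-2(rf)*, the fitted log2 difference of *sod-5* was 7.16 (SE 1.003), and it was 6.55 to 8.64 over the 6 fits that left out a library. The D7 libraries of this comparison are those whose *sod-5* level was known when the family was chosen, so it too is a description without a test. In the double mutant *sod-5* had too few reads to be tested between ages, and between genotypes on D1.

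*sod-1* (C15F1.7, chromosome II, 6972712 to 6973892, minus strand), the main cytosolic enzyme, did not follow this pattern. Its levels were 9.89, 4.18 and 3.27 CPM in *daf-2(rf)* on D1 and 4.71, 10.4 and 4.35 CPM on D7. In the double mutant they were 30.6, 6.09 and 5.96 CPM on D1 and 2.74, 3.23 and 2.45 CPM on D7. The *daf-2(rf)* ages overlapped, while all 3 D7 double-mutant libraries lay below every other library. The difference with age in the double mutant missed the threshold (log2 fold change -2.32, SE 0.67, adjusted p = 0.0684, edgeR), and so did the genotype difference on D7 (1.21, SE 0.42, adjusted p = 0.176). With a library left out, the age difference in the double mutant ran from -2.70 to -1.08.

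Within a library, *sod-5* can be set against *sod-1* without any scaling between libraries. Its share of the reads per kb of the pair was 98.7%, 95.2% and 98.7% in the D7 *daf-2(rf)* libraries. It was 2.58% to 33.8% in *daf-2(rf)* on D1, 3.92% to 16.43% in the D1 double mutant and 9.51% to 35.8% in the D7 double mutant. The minor gene of the pair therefore gave nearly all of its transcript in 1 group and the smaller part in the other 3. These shares rest on the same *sod-5* values and are a description.

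**Figure D1:**
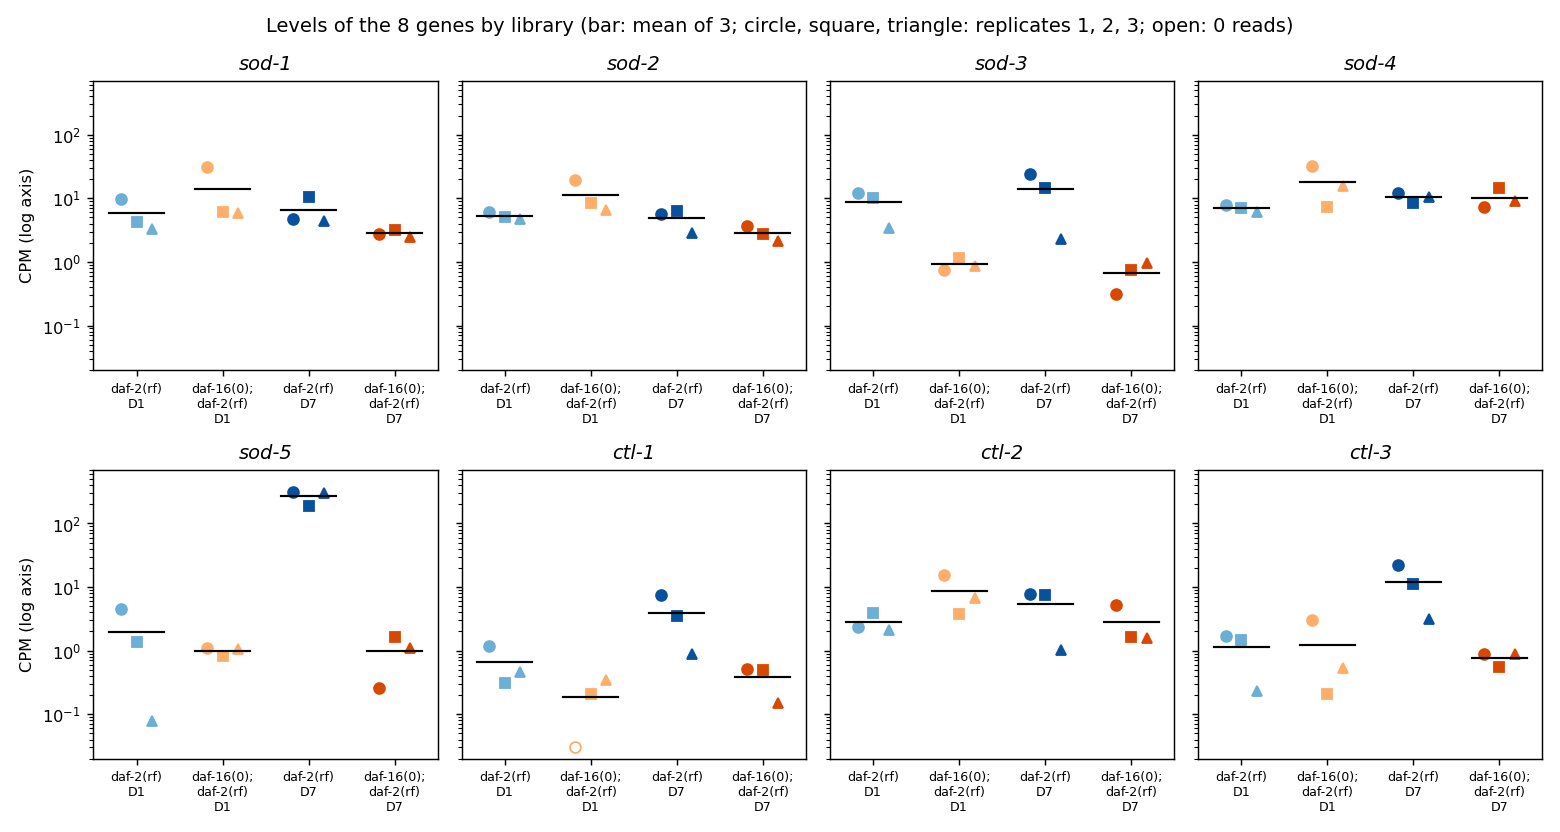
Levels of the 8 genes in each of the 12 libraries, in CPM on a log axis, with 1 panel per gene, 1 column per group, a symbol for each replicate and a bar at the mean of 3. *sod-5* stands at 186 to 315 CPM in the D7 *daf-2(rf)* libraries and at 4.53 CPM or less elsewhere, *sod-3* is higher in *daf-2(rf)* on both days, and the open symbol marks *ctl-1* with 0 reads, drawn at the foot of the axis.

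Of the mitochondrial pair, *sod-3* separated by genotype on both days and *sod-2* on D1 only. *sod-3* (C08A9.1, chromosome X, 17092718 to 17094223, plus strand) had 12.3, 10.1 and 3.42 CPM in *daf-2(rf)* on D1, against 0.747, 1.13 and 0.877 CPM in the double mutant. On D7 it had 24.5, 14.7 and 2.26 CPM against 0.310, 0.745 and 0.964 CPM. The genotypes did not overlap on either day, and replicate 3 was the lowest *daf-2(rf)* library each time. On D1 the difference was called (log2 fold change 3.07, SE 0.60, adjusted p = 0.0264, edgeR, higher in 3 of 3 libraries). The double-mutant D1 libraries held 2, 11 and 5 *sod-3* reads. The gene thus entered this test only through *daf-2(rf)*, where it was high. A gene this low in both groups would not have been tested. The call was lost without any 1 of the 3 *daf-2(rf)* D1 libraries, without double-mutant D1 replicate 3, and with all 12 libraries in 1 fit (adjusted p = 0.0504), with values of 2.72 to 3.45 and adjusted p of 0.0351 to 0.0972 over the 6 fits that left out a library.

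On D7 the double-mutant libraries held 6, 12 and 13 *sod-3* reads, so the gene again entered the test only through *daf-2(rf)*. The *sod-3* difference was larger in size on D7 but missed the threshold (4.35, SE 0.86, adjusted p = 0.0558, edgeR). It passed without *daf-2(rf)* D7 replicate 3 (adjusted p = 0.0252), with DESeq2, with no filter on low counts and with all 12 libraries in 1 fit, settings under which 702, 1025 and 262 of all genes were called against 91. Whether the genotype difference itself differed between the days was tested by interaction and missed the threshold (1.22, SE 1.1, adjusted p = 0.516), as did the change with age in *daf-2(rf)* (0.71, SE 0.74, adjusted p = 0.594). An antisense gene, *C08A9.3*, overlaps 582 bases of *sod-3* and had 325 reads in D7 *daf-2(rf)*, 0 in D1 *daf-2(rf)*, and 2 and 4 in the D1 and D7 double mutant. The strand setting of the counting is not given in the sources used here, so reads of the 2 genes cannot be told apart in the shared stretch.

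*sod-2* (F10D11.1, chromosome I, 8434489 to 8435810, plus strand), the main mitochondrial enzyme, went the other way on D1. Its levels were 6.08, 5.01 and 4.67 CPM in *daf-2(rf)* on D1 and 19.4, 8.46 and 6.49 CPM in the double mutant. On D7 they were 5.59, 6.38 and 2.85 CPM in *daf-2(rf)* and 3.62, 2.80 and 2.15 CPM in the double mutant. The D1 groups did not overlap, with the double mutant higher, whereas the D7 groups overlapped. Neither genotype difference passed (D1 log2 -1.16, SE 0.49, adjusted p = 0.176, D7 0.77, SE 0.42, adjusted p = 0.355, edgeR). With age the double mutant ranges separated downward without passing (-1.98, SE 0.52, adjusted p = 0.0613). With a library left out, this age difference ran from -2.26 to -1.37.

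As a share of the reads per kb of *sod-2* and *sod-3*, *sod-3* made up 67.8%, 67.9% and 43.4% in D1 *daf-2(rf)* and 82.1%, 70.6% and 45.3% in D7 *daf-2(rf)*. In the double mutant it made up 3.86%, 12.3% and 12.4% on D1 and 8.22%, 21.8% and 31.9% on D7. All 6 *daf-2(rf)* libraries lay above all 6 double-mutant libraries. The lowest *daf-2(rf)* shares were again those of replicate 3.

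**Figure D2:**
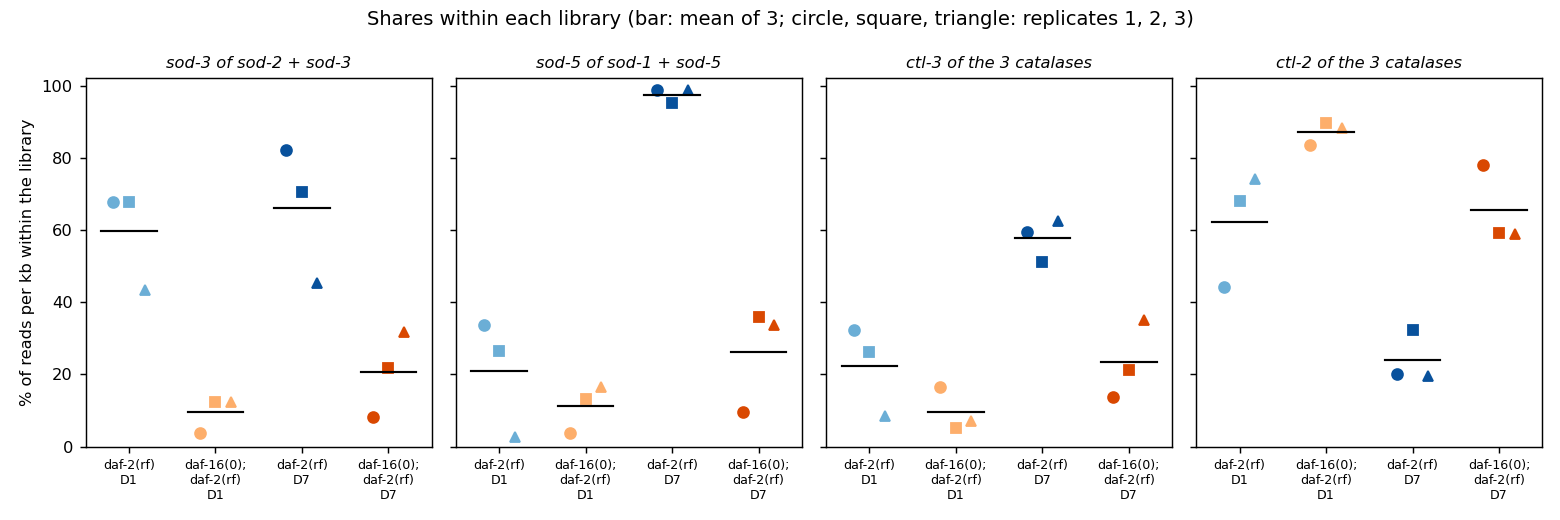
Share of reads per kb within each library, in percent, for *sod-3* in the mitochondrial pair, *sod-5* in the cytosolic pair, and *ctl-3* and *ctl-2* among the 3 catalases, with a symbol for each replicate and a bar at the mean of 3. *sod-3* separates the genotypes on both days, while *sod-5* at 95.2% to 98.7% and *ctl-3* at 51.2% to 62.4% lie above the ranges of the other 3 groups in D7 *daf-2(rf)*, where *ctl-2* lies below them.

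*sod-4* (F55H2.1, chromosome III, 9498158 to 9500204, minus strand), the extracellular enzyme, had 12.1, 8.59 and 10.6 CPM in D7 *daf-2(rf)* and 7.19, 14.5 and 8.98 CPM in the D7 double mutant. On D1 it had 7.74, 7.10 and 6.07 CPM in *daf-2(rf)* and 31.7, 7.43 and 15.8 CPM in the double mutant. The genotypes overlapped on both days, and the fitted D7 difference was 0.03 (SE 0.34, adjusted p = 0.966, edgeR), with a sign that changed between fits. The D7 *daf-2(rf)* libraries all lay above the D1 ones, by 0.62 on the log2 scale (SE 0.30), which missed the threshold (adjusted p = 0.252).

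The 3 catalase genes lie side by side on the minus strand of chromosome II, *ctl-2* (Y54G11A.5) at 14299553 to 14302050, *ctl-1* (Y54G11A.6) at 14303612 to 14306293 and *ctl-3* (Y54G11A.13) at 14307854 to 14310779, with 1561 and 1560 bases between neighbours. How reads that match more than 1 of them were counted is not given in the sources used here, so the split between the 3 is uncertain. *ctl-3* had 22.1, 11.4 and 3.11 CPM in D7 *daf-2(rf)* and 0.879, 0.559 and 0.890 CPM in the D7 double mutant. On D1 it had 1.67, 1.46 and 0.233 CPM in *daf-2(rf)* and 2.99, 0.206 and 0.526 CPM in the double mutant. The D7 *daf-2(rf)* libraries lay above all others, and the D1 genotypes overlapped.

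On D7 the *ctl-3* difference was called, at 3.93 on the log2 scale (SE 0.70, adjusted p = 0.0469, edgeR, higher in 3 of 3 libraries). The D7 double-mutant libraries held 17, 9 and 12 *ctl-3* reads and the D1 *daf-2(rf)* libraries 14, 14 and 3. The gene thus entered the tests of genotype on D7 and of age only through D7 *daf-2(rf)*, where it was high. The D7 values were also known when the family was chosen, so the D7 call is a description. The call held only without *daf-2(rf)* D7 replicate 3 (adjusted p = 0.0252) when a library was left out, and was lost without each of the other 5 D7 libraries, with values of 3.16 to 4.38 and adjusted p of up to 0.172. With age in *daf-2(rf)* the ranges separated without passing (3.502, SE 0.82, adjusted p = 0.0809, edgeR), though DESeq2 and the fit with no filter on low counts called it, as they did 651 and 863 of all genes against 16, and the interaction missed the threshold too (3.75, SE 1.34, adjusted p = 0.128).

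*ctl-1* had 7.42, 3.57 and 0.876 CPM in D7 *daf-2(rf)* against 0.517, 0.497 and 0.148 CPM in the D7 double mutant. On D1 it had 1.19, 0.313 and 0.467 CPM in *daf-2(rf)* and 0, 0.206 and 0.351 CPM in the double mutant, where the 3 libraries held 0, 2 and 2 reads. The D7 double-mutant libraries held 10, 8 and 2 *ctl-1* reads and the D1 *daf-2(rf)* libraries 10, 3 and 6. The gene thus entered the tests of genotype on D7 and of age only through D7 *daf-2(rf)*, where it was high. The D7 genotypes did not overlap, at a log2 difference of 3.26 (SE 0.84, adjusted p = 0.101, edgeR) that missed the threshold. It was called with DESeq2, with no filter on low counts and with all 12 libraries in 1 fit, and in 0 of the 6 fits that left out a library. With age in *daf-2(rf)* the ranges overlapped (2.62, SE 0.82, adjusted p = 0.127), and DESeq2 and the fit with no filter called the difference.

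*ctl-2* had 7.77, 7.48 and 1.02 CPM in D7 *daf-2(rf)* and 5.17, 1.62 and 1.56 CPM in the D7 double mutant, which overlapped (0.92, SE 0.77, adjusted p = 0.554, edgeR). On D1 it had 2.38, 3.97 and 2.1 CPM in *daf-2(rf)* and 15.7, 3.71 and 6.84 CPM in the double mutant (-1.64, SE 0.58, adjusted p = 0.132). A gene on the opposite strand, *Y54G11A.7*, overlaps 291 bases of *ctl-2* and had 669 reads in D7 *daf-2(rf)* against 423 of *ctl-2* itself, so part of the *ctl-2* count cannot be assigned with certainty.

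The make-up of the catalase transcripts is given as a description, since it rests on D7 *ctl-3* values known when the family was chosen. *ctl-3* took 59.5%, 51.2% and 62.4% of the catalase reads per kb in D7 *daf-2(rf)*. It took 8.55% to 32.2% in D1 *daf-2(rf)*, 5.17% to 16.5% in the D1 double mutant and 13.8% to 35.0% in the D7 double mutant. *ctl-2* led in the other 9 libraries, at 44.3% to 89.6%, and made up 19.6% to 32.4% in D7 *daf-2(rf)*. The level of *ctl-2* itself averaged 5.42 ± 3.82 CPM (SD, n = 3) in D7 *daf-2(rf)*, 2.82 ± 1.01 in D1 *daf-2(rf)*, 2.78 ± 2.07 in the D7 double mutant and 8.74 ± 6.21 in the D1 double mutant, and D7 *daf-2(rf)* overlapped each of the others. The ranges of the shares, unlike those of the *ctl-2* level, did not touch those of the other groups in D7 *daf-2(rf)* for either *ctl-3* or *ctl-2*. Both shares are parts of the same total, so a higher *ctl-3* share lowers that of *ctl-2*. The 3 catalases together held only 35 to 127 reads in each of the other 9 libraries, and their split is uncertain.

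**Figure D3:**
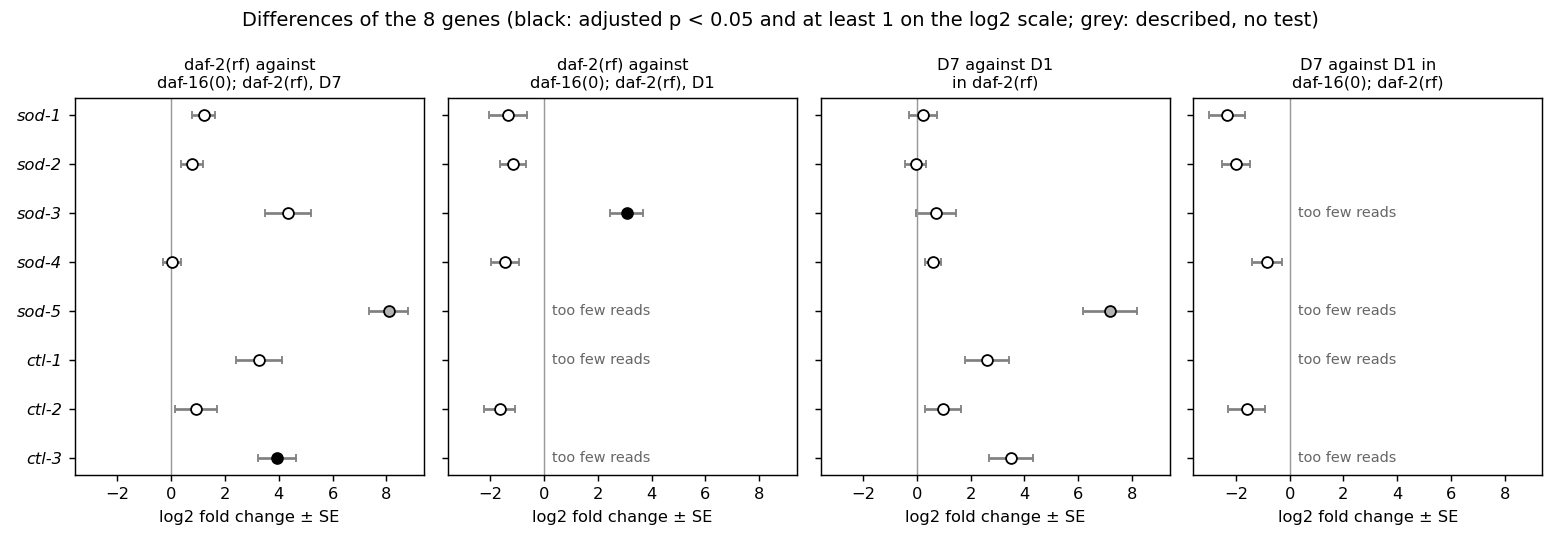
Fitted log2 fold changes of the 8 genes with their approximate standard errors in the 4 comparisons. Black points were past the threshold, *ctl-3* between genotypes on D7 (3.93) and *sod-3* between genotypes on D1 (3.07). The *ctl-3* point is nonetheless a description, since the D7 values were known when the family was chosen. Each of the 2 genes entered its test only through the *daf-2(rf)* libraries, where it was high. Grey points are the described *sod-5* differences on D7 (8.09) and with age in *daf-2(rf)* (7.16).

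Against all genes tested, the counts of members read as follows. On D7, all 8 were tested and *sod-5* and *ctl-3* were past the threshold (adjusted p under 0.05 and at least 1 on the log2 scale), where 1.15% of 7933 genes were. The D7 genotypes did not overlap for 5 of the 8 genes, *sod-1*, *sod-3*, *sod-5*, *ctl-1* and *ctl-3*, each higher in *daf-2(rf)*, where 25.6% of all genes did not overlap in either direction. Nothing is read from these D7 counts, since the family was chosen with D7 values known.

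On D1, 5 genes had enough reads and 1, *sod-3*, was called, where 3.51% of 6430 genes were. The D1 genotypes did not overlap for *sod-3*, higher in *daf-2(rf)*, and *sod-2*, lower, of the 5, against 32.2% of all genes. With age in *daf-2(rf)*, *sod-5* was past the threshold and the other 7 genes were not, where 0.218% of 7337 genes were, and *sod-4*, *sod-5* and *ctl-3* did not overlap, where 28.3% of all genes did not. Nothing is read from these age counts, which hold the same D7 values.

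With age in the double mutant, 4 genes had enough reads and 0 were called with edgeR, against 0.583% of 7541 genes. *sod-1* and *sod-2* did not overlap, both lower on D7, against 38.7% of all genes. Of the 4, *sod-1*, *sod-2* and *ctl-2* had an unadjusted p under 0.05, as did 29.7% of all genes, and DESeq2 called *sod-1* and *sod-2*, as it did 17.9% of all genes. Of the interaction tests, 1 of 8 passed, *sod-5*, against 0.704% of 8096 genes, and nothing is read from that count either, since it holds the D7 values.

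Compared per kb of gene length, the order of the 8 genes differed between groups. In D7 *daf-2(rf)*, *sod-5* led at 407 ± 108 CPM per kb (SD, n = 3), above the next gene, *sod-3* at 16.6 ± 13.4, in every library, and the lower neighbours overlapped. In the D7 double mutant *sod-4* led at 9.72 ± 3.61 CPM per kb, above *sod-1* at 3.83 ± 0.540, and the only other gap lay between *ctl-3* and *ctl-1*. In D1 *daf-2(rf)* the 5 dismutases overlapped as neighbours, led by *sod-3* at 10.3 ± 5.54 CPM per kb, and in the D1 double mutant *sod-1* at 19.4 ± 19.4, *sod-4* and *sod-2* led and overlapped. *ctl-1* was lowest in every group. The summed dismutase level was 331 to 534 CPM per kb in D7 *daf-2(rf)* and 15.5 to 96.9 in the other 9 libraries. The summed catalase level was 3.16 to 23.6 CPM per kb in D7 *daf-2(rf)* and 1.61 to 11.5 elsewhere, which overlapped.

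**Figure D4:**
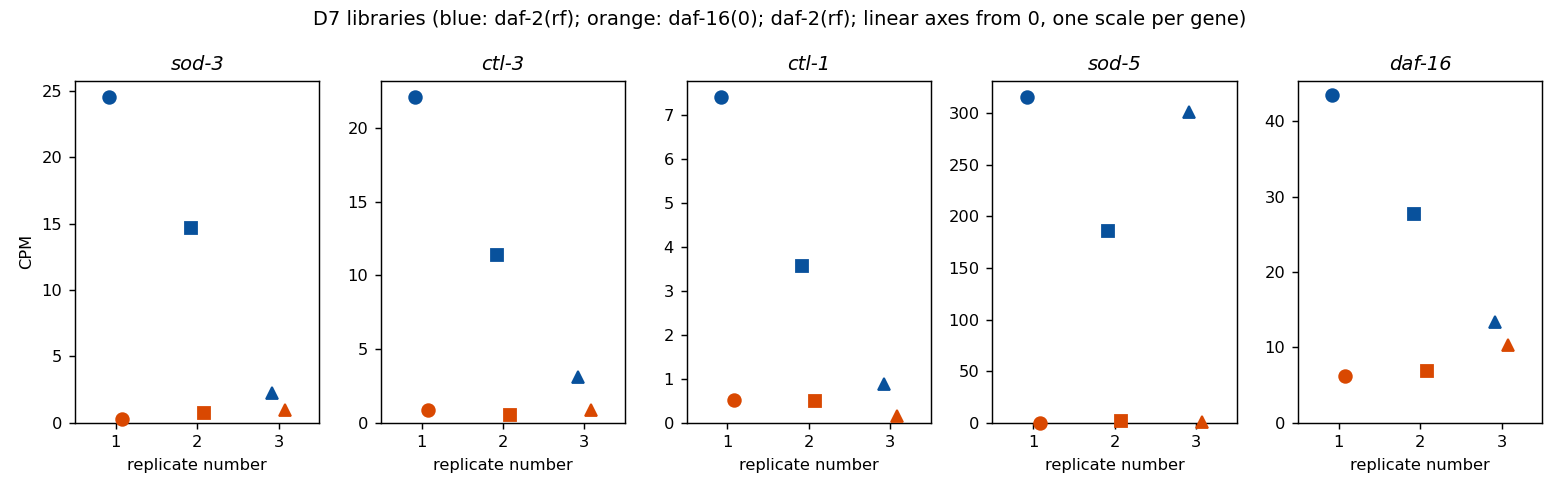
Levels in CPM in the 6 D7 libraries by replicate number, for *sod-3*, *ctl-3*, *ctl-1*, *sod-5* and *daf-16*, on linear axes from 0 with a scale for each gene (blue, *daf-2(rf)*, orange, the double mutant). *sod-3*, *ctl-3*, *ctl-1* and *daf-16* are highest in *daf-2(rf)* replicate 1 and lowest in replicate 3, whereas *sod-5* is at 301 CPM in replicate 3.

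The spread within D7 *daf-2(rf)* was itself shared by several members. *sod-3*, *ctl-1*, *ctl-2* and *ctl-3* were each highest in replicate 1 and lowest in replicate 3, with *sod-3* at 24.5 and 2.26 CPM. *daf-16* had the same order in these libraries, at 43.5, 27.7 and 13.3 CPM, whereas *sod-5* did not (315, 186 and 301 CPM). The order of replicates 1 and 2 rests on the scaling, with TMM factors of 0.943 and 3.22. With 12158458 and 12456291 reads on genes, replicate 2 held more reads of each of these genes, such as 584 against 281 for *sod-3*. What sets replicate 3 apart was not tested. On D1, replicate 1 of the double mutant, the shallowest library, held the highest scaled level of *sod-1*, *sod-2*, *sod-4* and *ctl-2* of all 12 libraries. This ranking rests on its TMM factor of 0.434. *sod-1* had 82 of 6183054 reads there and 414 of 12456291 in *daf-2(rf)* D7 replicate 2. With all 6 D1 libraries the genotype difference was -1.33 for *sod-1*, -1.16 for *sod-2*, -1.43 for *sod-4* and -1.64 for *ctl-2*. Without double-mutant D1 replicate 1 it was -0.07, -0.52, -0.72 and -0.89 in the same order. Without double-mutant D1 replicate 2 it was -1.81 for *sod-4*, which was then called (adjusted p = 0.0423, edgeR), whereas with all 6 libraries it was not (adjusted p = 0.139).

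By Pearson correlation of log2 CPM over the 12 libraries, which share depth and scaling and fall into 4 groups, the genes most like each member differed between the main and the inducible enzymes. *sod-1* was most like *rpl-28* (r = 0.96), *rps-12* (0.95) and *rpl-18* (0.95), and *sod-2* most like *ucr-1* (0.96), *Y69A2AR.18* (0.96) and *rps-11* (0.96). The names *rpl* and *rps* mark proteins of the cytosolic ribosome. *sod-1* and *sod-2* were also like each other (r = 0.89). *sod-4* was most like *R02F2.1* (0.94), *Y54G2A.26* (0.93) and *unc-51* (0.93), and *ctl-2* most like *mrps-12* (0.92), the peroxiredoxin gene *prdx-3* (0.87) and *C02F5.13* (0.86). Double-mutant D1 replicate 1 held the highest level of *sod-4* and of the genes most like it. By rank (Spearman) their correlations were lower, at 0.85, 0.73 and 0.75, whereas those for *sod-1* were 0.97, 0.97 and 0.90.

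*sod-3* was most like *akt-2* (r = 0.97), which encodes a kinase of the insulin pathway, *mai-2* (0.93) and *B0546.3* (0.93). *akt-2* had 15.4 to 35.5 CPM in the *daf-2(rf)* libraries and 10.01 to 12.3 CPM in the double mutant. *mai-2* had 0 reads in every double-mutant library and *B0546.3* had 0 or 1. In *daf-2(rf)* they had 26 to 158 and 23 to 92 reads. Their correlations with *sod-3* thus largely mark the genotype, and why they lacked reads in the double mutant was not tested. *sod-5* was most like *C54F6.15* (0.92), *C54F6.6* (0.92) and *F08H9.4* (0.91). These 3 had means of 32.2, 85.0 and 40.4 CPM in D7 *daf-2(rf)* and at most 3.64 CPM in any other group. Their correlations with *sod-5* thus largely mark that group. *ctl-3* was most like *T22H9.1* (0.90), *C54F6.6* (0.86) and *C29F9.5* (0.82), and *ctl-1* most like *R03H10.1* (0.93), *ubc-25* (0.89) and *K11B4.1* (0.88). Among members, *sod-5* was nearest to *ctl-3* (r = 0.85) and *ctl-1* (0.76), whose means were also highest in D7 *daf-2(rf)*. The likenesses of *sod-5* and *ctl-3* rest on D7 values known when the family was chosen and are a description.

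The rest of the antioxidant system was taken from 5 lists of 79 genes, of which 72 were in the table: peroxiredoxins and thioredoxins, glutathione peroxidases and synthesis, peroxisome genes, sources of superoxide with metal supply, and regulators of oxidative stress genes. On D7, 0 of 50 tested were called between genotypes, where 1.15% of all genes were. Their median log2 difference was 0.34 beside 0.03 over all genes. On D1, 1 of 45 passed upward in *daf-2(rf)* and 1 downward, where 3.51% of all genes were called, with a median of -0.27 beside -0.02. *akt-1*, a kinase gene of the insulin pathway, was the higher one (67.8 ± 13.4 against 13.5 ± 5.18 CPM, SD, n = 3, log2 2.25, SE 0.43, adjusted p = 0.0264, edgeR), and *ftn-2*, a ferritin gene, the lower one (5.76 ± 3.18 against 57.4 ± 52.7 CPM, SD, n = 3, log2 -3.37, SE 0.71, adjusted p = 0.0332). With age, 0 of 47 were called in *daf-2(rf)* and 0 of 48 in the double mutant, and 0 of 50 in the interaction test. Of all genes, 0.218%, 0.583% and 0.704% were called in the same order. At shares this small, nothing is read from the counts of 0.

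Markers of other tissues moved with the groups. The 11 intestine markers summed to 24.2 to 58.1 CPM in D7 *daf-2(rf)* against 131 to 1172 CPM in the D7 double mutant, where *sod-5* and *ctl-3* were low, and 2 of the 8 tested were called lower in *daf-2(rf)*. On D1 they summed to 419 to 679 against 483 to 2034 CPM, with 4 of 7 called lower. Of the 14 germ line markers, 5 of 10 tested were called lower in *daf-2(rf)* on D1 and 0 of 8 on D7. With age in *daf-2(rf)*, where *sod-5* was higher, 3 of 7 intestine markers were called lower on D7. With age in the double mutant, where *sod-1* and *sod-2* lay lower, 3 of 11 germ line markers were called lower on D7, with a median log2 difference of -2.45 over the 11. Of all genes tested, 65 of 7933 were called lower in *daf-2(rf)* on D7 and 145 of 6430 on D1. With age, 11 of 7337 were called lower on D7 in *daf-2(rf)* and 29 of 7541 in the double mutant. The 8 body-wall muscle markers summed to 8831 to 10141 CPM in D1 *daf-2(rf)* and 7924 to 19585 CPM in the D1 double mutant. On D7 they summed to 1531 to 5204 and 3223 to 4672 CPM in the same order, below both D1 ranges. With age, 0 of the 7 tested were called in either genotype, with median log2 differences of -0.67 and -1.84. The sperm markers summed to at most 6.55 CPM, with *ssp-9* at 0 reads throughout. The part of these cells in the differences of the members was not tested.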

How the data were processed

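GFP+ cells were sorted from dissociated worms and their RNA was amplified and sequenced. The authors aligned the reads to WBcel235 with HISAT2 2.0.5 and counted them with featureCounts 1.5.0-p3, and the deposited read counts are not normalized. The deposited FPKM values equal the count over gene length, DESeq2 size factor and geometric mean library total (100% of 165242 values above 0 within 1%), and served only as an alternative scale. Gene lengths and coordinates, other than measurements, are those of the deposited count table, and differ by some bases from the reference annotation used here for comparison.

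The quasi-likelihood F test of edgeR 4.0.16 (R 4.3.3, TMM factors, Benjamini-Hochberg adjustment) was applied to the counts in separate fits of 6 libraries. A gene entered a fit if each of the 3 libraries of either group exceeded 10 reads, and was called at an adjusted p below 0.05 with a log2 fold change of 1 or more in size. The interaction used all 12 libraries and the adjusted p alone. Standard errors are approximate, the absolute log2 fold change over the square root of F. Levels were scaled by TMM factors over the genes of the 12-library fit. A scaling by all genes had been computed first, and the choice between them was made after both had been seen.

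The members and lists were chosen with earlier results of these data known. Named genes are the 8 members, *daf-16*, list genes that were called (at most 3 per direction) and the 3 genes most correlated with each member (log2 CPM, prior count 2). *C08A9.3* and *Y54G11A.7* were named for overlapping members. Replicates are biological per the methods of the study. Replicate numbers did not pair libraries. DESeq2 1.42.0, other normalizations and filters, a replicate block and leaving out each library were the alternatives. Promoter and protein sequences were not analysed here.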

Additional observations from a re-analysis of the deposited data

Results flagged for a closer look

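The genotype difference of *sod-5* on D7 exceeded that on D1 by 7.10 on the log2 scale (SE 1.31), and it came up because this difference between the days was past the threshold of the interaction test over all 12 libraries. The D7 level of *sod-5* was known when the genes were chosen, so the value is a description and is given without a p. The D7 *daf-2(rf)* libraries had 315, 186 and 301 CPM and the other 9 at most 4.53 CPM. Over the 12 fits that left out a library each, the value was 6.49 to 8.59, and it was past the threshold only without double-mutant D1 replicate 2 or *daf-2(rf)* D7 replicate 1.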

How the results depend on the processing

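Of the 8 genes, 2 were called between genotypes on D7, 1 on D1, 1 with age in *daf-2(rf)*, 0 with age in the double mutant and 1 by interaction. These counts were 4, 1, 3, 2 and 2 with DESeq2, 4, 1, 3, 2 and 3 with no filter on low counts, and 0 in all 5 with more than 10 reads asked of every library, where *sod-5*, *sod-3* and *ctl-3* were not tested between genotypes. With all 12 libraries in 1 fit, the 4 comparisons gave 4, 0, 1 and 2, and upper-quartile scaling gave 0 by interaction. Leaving out 1 library gave 0 to 3 on D7, 0 to 2 on D1, 0 to 1 with age in *daf-2(rf)*, 0 to 2 in the double mutant and 0 to 1 by interaction. Replicate numbers did not pair the libraries (mean correlation of deviations -0.023 over 18 same-numbered pairs, 0.011 over 36 others), and a replicate block gave 0, 1, 1, 0 and 0 in the order above. With age in *daf-2(rf)* the 1 called under the block was *ctl-3* (adjusted p = 0.0434, edgeR), and *sod-5* was not past the threshold.

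Directions changed for 4 differences, none of them called. The D7 genotype difference of *sod-4* was -0.0028 with more than 10 reads in every library and -0.18 to 0.39 with a library left out. The age difference of *sod-2* in *daf-2(rf)* was 0.016 with upper-quartile scaling, 0.0066 with no filter, 0.025 with more than 10 reads in every library and -0.32 to 0.23 with a library left out. That of *sod-1* was -0.32 to 0.83 and that of *sod-3*, 0.71 with all 6 libraries, was -0.068 to 1.21 with a library left out. The cause was not tested.

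Over all genes, 91, 226, 16, 44 and 57 were called in the 5 comparisons in the same order. DESeq2 called 702, 761, 651, 1353 and 842, and no filter 1025, 861, 863, 1394 and 703. More than 10 reads in every library gave 8, 70, 53, 2 and 75. All 12 libraries in 1 fit gave 262, 277, 63 and 979, upper-quartile scaling 1 by interaction, and the replicate block 0, 478, 15, 67 and 17. A library left out gave 0 to 29, 2 to 474, 0 to 231, 0 to 635 and 0 to 130. TMM factors over all genes, an alternative chosen after seeing the data, put *sod-5* in D7 *daf-2(rf)* at 292 CPM against 268, and moved no member's group mean by more than its SD. With 1 read worth up to 0.373 CPM, levels under about 1 CPM rest on few reads.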
